A study of Mus musculus with 4 samples.

Results

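Interferon-stimulated genes were compared between the mammary fat pads of young and aged female mice. The set comprised 43 of the 55487 genes in the count table, found by their symbols: 33 are known mainly as targets of type I interferon and 10 as targets of interferon-gamma. All 43 passed the filter on low counts, which kept 22485 genes for testing. The animals were c57bl/6j females, with 2 libraries from mice aged 8 weeks (young) and 2 from mice aged 14 months (aged), and no allele or treatment is named for either age. Each library was total RNA of the whole pad, depleted of ribosomal RNA, so transcripts of fat cells, ducts, vessels, immune cells and any muscle in the piece were read together, and for any gene a smaller number of expressing cells and less RNA per cell cannot be told apart. The study from which the libraries come asks how lipids of the tissue around a melanoma bear on its spread, and young and aged pads were profiled as such host tissue. The labels call the 2 libraries of an age biological replicates and do not say whether each was 1 animal or a pool.

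Cells make type I interferons, among them interferon-beta and the interferon-alphas, after sensing foreign or misplaced nucleic acid, while interferon-gamma comes mainly from T cells and natural killer cells. The type I receptor signals through the kinases Jak1 and Tyk2 to Stat2, which joins Irf9 in a complex that binds the interferon-stimulated response element (ISRE). Signals of the interferon-gamma receptor reach genes mainly through the gamma-activated site (GAS). The induced genes encode inhibitors of viral replication, sensors of viral RNA, and, for interferon-gamma above all, the machinery that cuts peptides and loads them on MHC class I molecules.

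The letters of both elements could be looked up in the promoters of 31 of the 43 genes, using RefSeq windows of the mouse build GRCm38.p6 that run from upstream of each start site to a short way past it, 300 bases in all. The core of the ISRE was searched as GAAA, then NN, then GAAA and that of the GAS as TTCNNNGAA, on both strands, and the search allowed matches to overlap. ISRE letters stood in the windows of 17 of the 31 genes (54.8%), against 1079 of all 27025 genes in the table (3.99%). By class, they stood in 13 of 23 type I members (56.5%) and in 4 of 8 interferon-gamma members (50%). GAS letters stood in 9 of 31 members (29%), against 9.55% of all genes, and again in 4 of the 8 interferon-gamma members (50%), against 5 of 23 type I members (21.7%). Of the 31, 5 held both (Bst2, Gbp7, Ifitm3, Igtp and Oas1a), and in Bst2 and Ifitm3 the matches overlapped by 3 bases. A further 10 held neither, so that these letters, a short form of both elements, describe the windows and do not mark bound sites.

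The stretches below are 100 bases long, lie outside annotated exons, read 5′ to 3′ on the strand of the gene, and carry the letters of 1 element in capitals. They are shown because they cover both elements and genes whose values in the fat pad went different ways: Isg15 (chr4:156200825-156200924, minus strand), Ifit1 (chr19:34640764-34640863, plus), Ifit3 (chr19:34583367-34583466, plus), Ifit3b (chr19:34607763-34607862, plus), Oas3 (chr5:120777675-120777774, minus), Rsad2 (chr12:26456513-26456612, minus), Igtp (chr11:58199456-58199555, plus) and Irf1 (chr11:53769884-53769983, plus). The capitals mark ISRE letters in the first 7 and GAS letters in Irf1, so that the GAS letters of Igtp, which begin 45 bases before its start site, stay in lower case.
Isg15: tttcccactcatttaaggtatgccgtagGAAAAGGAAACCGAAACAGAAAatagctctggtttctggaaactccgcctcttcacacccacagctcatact
Ifit1: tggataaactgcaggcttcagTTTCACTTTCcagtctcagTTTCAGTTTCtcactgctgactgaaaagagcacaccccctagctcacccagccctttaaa
Ifit3: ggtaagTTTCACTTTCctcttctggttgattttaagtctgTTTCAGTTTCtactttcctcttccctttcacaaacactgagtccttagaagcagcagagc
Ifit3b: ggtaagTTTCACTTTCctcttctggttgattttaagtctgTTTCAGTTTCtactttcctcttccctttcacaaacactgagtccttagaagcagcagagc
Oas3: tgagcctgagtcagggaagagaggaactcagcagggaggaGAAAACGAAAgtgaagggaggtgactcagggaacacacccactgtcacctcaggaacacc
Rsad2: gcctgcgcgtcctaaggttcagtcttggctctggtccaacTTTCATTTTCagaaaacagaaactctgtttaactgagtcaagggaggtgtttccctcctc
Igtp: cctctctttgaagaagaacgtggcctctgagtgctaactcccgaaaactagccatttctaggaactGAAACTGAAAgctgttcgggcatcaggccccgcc
Irf1: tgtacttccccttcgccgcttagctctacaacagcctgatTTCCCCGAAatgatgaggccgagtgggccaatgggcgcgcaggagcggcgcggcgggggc
In Isg15 3 matches ran into each other, the nearest starting 66 bases before the start site. In Oas3 a single match began 75 bases before it, and in Rsad2 a single match began 120 bases before it, on the other strand. The stretches of the neighbours Ifit3 and Ifit3b were equal at 100 of 100 bases.

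The 4 libraries held between 68803304 and 98402403 counts, so that 3 counts corresponded to between 0.0337 and 0.0407 CPM, the unit used here for a count relative to the library total as scaled by the TMM method of edgeR. All 8 fat cell markers were tested, and their summed level was 12520 and 9991 CPM in the aged libraries and 7985 and 8326 CPM in the young ones. Young replicate 1 stood apart from the other 3 libraries. The 10 T and natural killer cell markers summed to 655 CPM there, against 7.90 CPM in young replicate 2 and 12.4 and 59.3 CPM in aged replicates 1 and 2, and all 10 were highest in young replicate 1. The 8 B and plasma cell markers summed to 477.1 CPM there, against 3.54 CPM in young replicate 2 and 15.9 and 189 CPM in aged replicates 1 and 2, and 6 of the 8 were highest in young replicate 1. The other 2, Jchain and Mzb1, were highest in aged replicate 2. Jchain was higher in both aged libraries, at 9.51 and 113.1 CPM, than in young replicates 1 and 2, at 0.598 and 0.420 CPM. It made up much of the aged sums. No marker of either list was at 0 in any library. Of the 5 markers tested of plasmacytoid dendritic cells, known as strong producers of type I interferon, 4 were highest in young replicate 1 as well, as were all 6 markers of proliferation. The summed level of the 10 macrophage and monocyte markers differed less, at 288 and 327.1 CPM in the aged libraries and 236.3 and 213.4 CPM in the young ones. Of these markers, 8 had a positive log2 fold change and 8 were highest in aged replicate 2. Ly6c2 did not follow the sum, at 19.9 CPM in young replicate 1, 0.352 CPM in young replicate 2 and 1.00 and 3.22 CPM in the aged libraries. The 8 skeletal muscle markers were higher in both aged libraries, at 40960 and 65730 CPM, than in the young ones, at 10670 and 14760 CPM. The part that lymphocyte, macrophage or muscle content had in the results for the interferon-stimulated genes was not tested. Each member is therefore given below for every library, with the aged against young value repeated without young replicate 1, where young replicate 2 alone stands for its age and is assumed to vary as the aged libraries do.

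Most interferon-stimulated genes were highest in young replicate 1, and with that library in the comparison the set lay lower in the aged fat pad. The median log2 fold change, aged over young, was -0.36 over the 43 genes, -0.34 over the 33 type I members and -0.45 over the 10 interferon-gamma members, beside -0.04 over all genes tested. It was negative for 33 of the 43 genes and positive for 10, where 53% of all genes tested were negative. By the quasi-likelihood test of edgeR, with p adjusted after Benjamini and Hochberg, 0 of the 43 passed an adjusted p of 0.05, the share over all genes was 0% too, and the smallest adjusted p among them was 0.426. DESeq2 also called 0 of the 43, while it called 3.24% of the genes it tested higher and 0.71% lower in aged. At an unadjusted p of 0.05 edgeR had 2 members higher in aged, Rsad2 and Ifitm3, against 7.24% of all genes, and 3 lower, Irf9, Stat2 and Mx2, against 3.31%. For a single gene an exact two-sided permutation test of 2 libraries against 2 cannot go below 0.333.

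Library by library, the median of the members' log2 CPM, each gene centred on its own mean, was -0.19 and -0.12 in aged replicates 1 and 2, 0.40 in young replicate 1 and -0.23 in young replicate 2. The young libraries therefore lay on either side of the aged ones. Young replicate 1 was the highest library for 34 of the 43 genes, 25 type I and 9 of the 10 interferon-gamma members, where 34.1% of all genes tested were highest there. The difference between the young libraries exceeded that between ages for 27 of the 43, where it did so for 57.7% of all genes. The median log2 difference between young replicates 1 and 2 was 0.66 over the members, 0.54 for type I and 1.16 for interferon-gamma members, and -0.01 over all genes, while that between aged replicates 1 and 2 was -0.06 over the members.

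**Figure D1:**
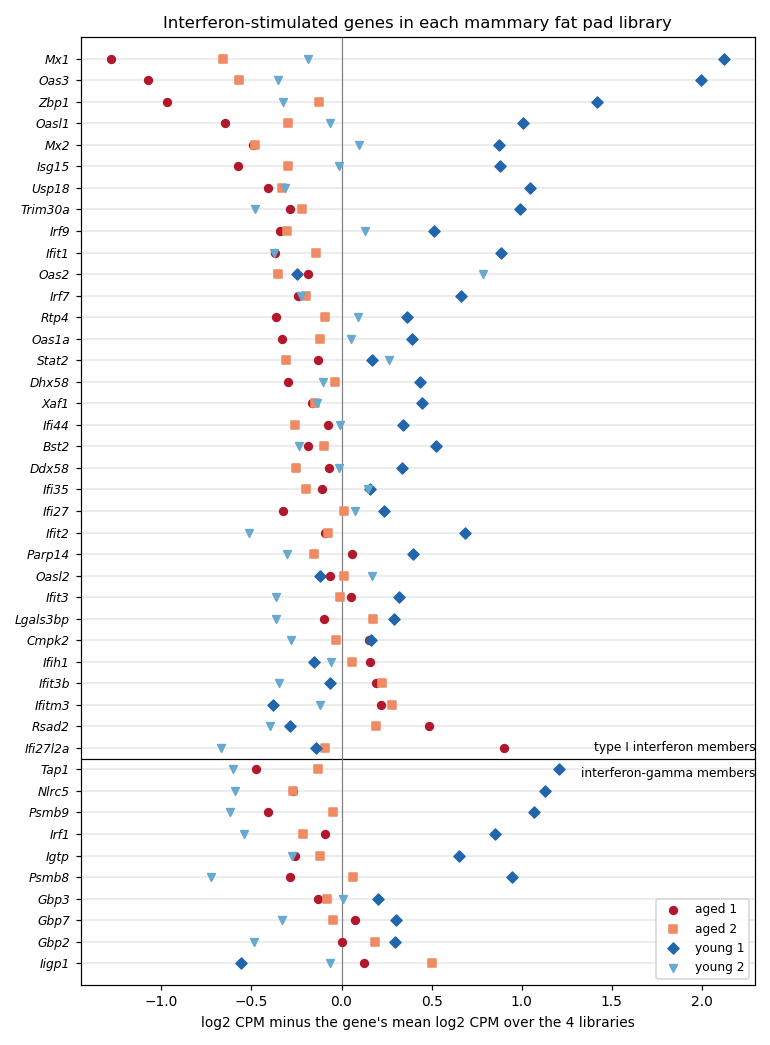
Each row is an interferon-stimulated gene and each point 1 library (red, aged; blue, young), placed at its log2 CPM minus the gene's mean over the 4 libraries; the line separates the 33 type I from the 10 interferon-gamma members, both sorted by log2 fold change. Young replicate 1 is the rightmost point for 34 of the 43 genes.

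The groups did not overlap for 22 of the 43 genes. Both aged libraries were below both young ones for 16, against 22.8% of all genes tested, and above them for 6, against 23.3%. Of the 16, 15 were type I members, among them Isg15, Mx1, Mx2, Oas3, Irf9 and Stat2, and 1, Gbp3, was an interferon-gamma member. The 6 were Rsad2, Ifitm3, Ifi27l2a, Ifit3b, Ifih1 and Iigp1. Without young replicate 1 the median log2 fold change was 0.09 over the 43 genes, -0.06 over type I members and 0.37 over interferon-gamma members. The sign turned for 13 genes, 6 type I and 7 of the 10 interferon-gamma members, where it turned for 22.9% of all genes, and 20 were then negative, where 48% of all genes were, and 23 positive. In that comparison 0 members, and 0% of all genes, passed an adjusted p of 0.05 in edgeR. At an unadjusted p of 0.05, 3 were higher in aged, Rsad2, Gbp2 and Psmb8, against 7.24% of all genes, and 3 lower, Irf9, Stat2 and Oas2, against 4.88%. Rsad2, Irf9 and Stat2 thus had an unadjusted p under that limit with and without young replicate 1.

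**Figure D2:**
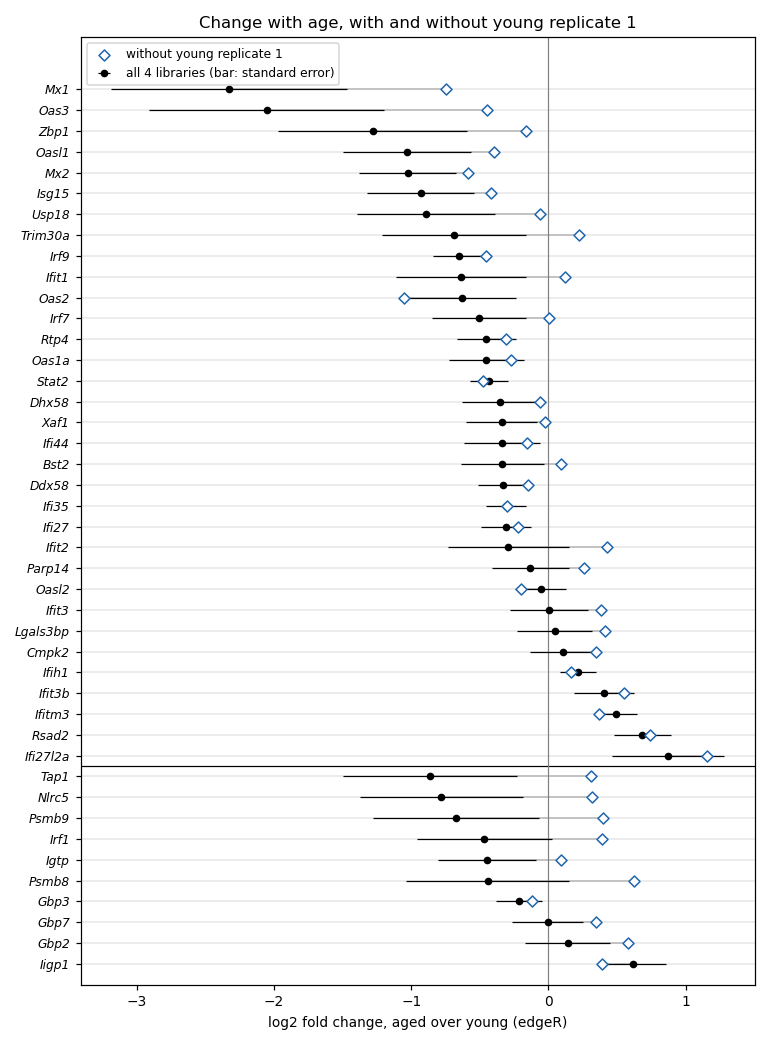
Log2 fold change, aged over young, of each interferon-stimulated gene from edgeR with all 4 libraries (black, bar 1 standard error) and without young replicate 1 (open blue diamonds); the line separates type I from interferon-gamma members. Leaving the library out moved 13 genes across 0, and Ifi35, Stat2 and Ifih1 moved least.

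Among the transcription factors of the pathway, Irf9 and Stat2, both parts of the complex that binds the ISRE, were lower in both aged libraries. Irf9 (chr14:55603571-55610030) was at 33.9 and 34.8 CPM in the aged libraries and at 61.2 and 47.0 CPM in young replicates 1 and 2 (34.4 ± 0.594 against 54.1 ± 10.1, SD, n = 2 each). On the log2 scale the difference between ages was -0.65 (SE 0.186, unadjusted p = 0.0232, adjusted p = 0.426 by edgeR), and -0.45 without young replicate 1. Some exons of Irf9 overlap Rnf31 on the same strand, and 1.82% of its 50-base windows occur in other genes. Stat2 (chr10:128270559-128292849) was at 59.4 and 52.5 CPM in the aged libraries and at 73.1 and 77.9 CPM in the young ones (55.9 ± 4.87 against 75.5 ± 3.37, SD, n = 2 each). The aged over young log2 value was -0.43 (SE 0.137, unadjusted p = 0.0326, adjusted p = 0.453 by edgeR), and -0.48 without young replicate 1. For Stat2 the young libraries differed by only -0.09 on the log2 scale, so that this gene did not follow the excess of most members in young replicate 1.

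Irf7 and Irf1 were high in young replicate 1 alone. Irf7, which amplifies the production of type I interferon, was at 20.8 and 21.4 CPM in the aged libraries, 39.0 CPM in young replicate 1 and 21.03 CPM in the other young library. Its log2 fold change of -0.51 (SE 0.342, adjusted p = 0.578 by edgeR) was 0.01 without young replicate 1, and the groups overlapped. Irf1, a factor induced by interferon-gamma, held the GAS letters shown above in its window. Irf1 was at 69.7 and 64.2 CPM in the aged libraries, 134 CPM in young replicate 1 and 51.0 CPM in the other young library. Its log2 fold change was -0.47 (SE 0.492, adjusted p = 0.700 by edgeR), and 0.39 without young replicate 1. The direction for Irf7 and Irf1 thus rested on young replicate 1.

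The largest absolute log2 fold change of the set was that of Mx1. Mx1, of the dynamin-like GTPase family, was at 2.39 and 3.66 CPM in the aged libraries, 25.3 CPM in young replicate 1 and 5.08 CPM in the other young library. RNA counts do not show whether either Mx gene makes a working protein in this strain. For Mx1 the log2 difference between ages was -2.33 (SE 0.859, adjusted p = 0.477 by edgeR), and -0.75 without young replicate 1. Mx2, its neighbour on chromosome 16, was at 3.34 and 3.36 CPM in the aged libraries and at 8.61 and 5.01 CPM in the young ones. For Mx2 the log2 fold change was -1.03 (SE 0.354, unadjusted p = 0.0426, adjusted p = 0.463 by edgeR), and -0.58 without young replicate 1. Both Mx genes lay below both young libraries in each aged one, and 4.37% of the 50-base windows of Mx1 and 4.38% of those of Mx2 also occur in other genes, most of them in the other Mx gene.

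The oligoadenylate synthetases, which make the messenger that activates RNase L, did not move as 1 group. Oas3 was at 1.74 and 2.47 CPM in the aged libraries, 14.6 CPM in young replicate 1 and 2.87 CPM in the other young library, with a log2 fold change of -2.05 (SE 0.859, adjusted p = 0.501 by edgeR), and -0.45 without young replicate 1. Oas2, on the same stretch of chromosome 5, was instead at 14.9 and 13.3 CPM in the aged libraries, 14.3 CPM in young replicate 1 and 29.3 CPM in the other young library. Its log2 fold change of -0.63 (SE 0.395, adjusted p = 0.565 by edgeR) was -1.06 without young replicate 1, where its unadjusted p was 0.00264. Without young replicate 2 it was -0.01, so for Oas2 the high library was young replicate 2 and not young replicate 1. The summed level of the 8 mammary epithelial markers was also highest in young replicate 2, at 2286 CPM, against 1704 and 1717 CPM in the aged libraries. It was lowest in young replicate 1, at 929.5 CPM, where Oas2 was near its aged values. Of the 8 markers, 6 were highest in young replicate 2 and 2, Krt5 and Krt14, in aged replicate 2. The part of these markers in the value of Oas2 was not tested. Oas1a was at 3.39 and 3.92 CPM in the aged libraries and at 5.58 and 4.42 CPM in the young ones (log2 fold change -0.45), but 57.6% of its 50-base windows also occur in Oas1g, so its counts are uncertain. The related Oasl1 was at 1.97 and 2.52 CPM in the aged libraries and at 6.22 and 2.95 CPM in the young ones. For Oasl1 the log2 fold change was -1.03 (SE 0.466, adjusted p = 0.509 by edgeR), and -0.40 without young replicate 1, while Oasl2, with 20.9 and 22.02 CPM in aged and 20.1 and 24.6 CPM in young libraries, had one of -0.06. Opposite-strand exons overlap Oasl1, and whether strand was used in the counting is not given in the sources used here.

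Isg15, a ubiquitin-like protein joined to other proteins, and Usp18, the protease that removes it and also dampens the type I receptor, were both lower in each aged library than in each young one. Isg15 (chr4:156199424-156200818) was at 3.58 and 4.33 CPM in the aged libraries and at 9.81 and 5.29 CPM in the young ones. The aged over young log2 value was -0.93 (SE 0.391, adjusted p = 0.501 by edgeR), and -0.42 without young replicate 1. Usp18 was at 7.69 and 8.10 CPM in the aged libraries, 21.1 CPM in young replicate 1 and 8.21 CPM in the other young library. Its log2 fold change of -0.89 (SE 0.503, adjusted p = 0.547 by edgeR) was -0.06 without young replicate 1, so that Usp18 stood at about the same level in the other 3 libraries. Zbp1, a sensor of Z-form nucleic acid that can trigger cell death, was at 6.08 and 10.9 CPM in the aged libraries, 31.8 CPM in young replicate 1 and 9.51 CPM in the other young library. For Zbp1 the log2 fold change was -1.28 (SE 0.688, adjusted p = 0.537 by edgeR), and -0.16 without young replicate 1.

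A smaller set of type I members was higher in both aged libraries. Rsad2 (chr12:26442746-26456452), which encodes viperin, an enzyme that makes a chain-ending nucleotide, was at 17.2 and 14.0 CPM in the aged libraries and at 10.1 and 9.31 CPM in the young ones (15.6 ± 2.21 against 9.69 ± 0.533, SD, n = 2 each). Its log2 fold change was 0.69 (SE 0.207, unadjusted p = 0.0280, adjusted p = 0.436 by edgeR), and 0.74 without young replicate 1. Its neighbour Cmpk2, a nucleotide kinase, was at 15.4 and 13.5 CPM in the aged libraries and at 15.5 and 11.4 CPM in the young ones, with a log2 fold change of 0.11. The groups thus lay apart for Rsad2 and overlapped for Cmpk2 at the same locus. Ifitm3, which stops viruses from leaving endosomes, was at 62.1 and 64.9 CPM in the aged libraries and at 41.1 and 49.2 CPM in the young ones (63.5 ± 1.97 against 45.1 ± 5.73, SD, n = 2 each). On the log2 scale the difference between ages was 0.49 (SE 0.153, unadjusted p = 0.0308, adjusted p = 0.447 by edgeR), and 0.37 without young replicate 1, and 10% of its 50-base windows occur in other genes. With reads scaled by total counts alone, 0 members were higher in aged at an unadjusted p of 0.05, beside 4.49% of all genes.

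Ifi27l2a, a small protein of the interferon-alpha-inducible 27 family, had the largest positive value with all 4 libraries, which rested in part on aged replicate 1. It was at 331 and 165.8 CPM in the aged libraries and at 160.1 and 111.3 CPM in the young ones (248.4 ± 116.8 against 135.7 ± 34.5, SD, n = 2 each). Aged replicate 2 therefore barely exceeded young replicate 1, and the log2 fold change of 0.87 (SE 0.411, adjusted p = 0.520 by edgeR) was 1.16 without young replicate 1 and 0.28 without aged replicate 1. Ifi27, which lies beside it on chromosome 12, went the other way, at 156.8 and 198.1 CPM in the aged libraries and 231.5 and 207.1 CPM in the young ones (log2 fold change -0.31, SE 0.182, adjusted p = 0.555 by edgeR, and -0.16 without aged replicate 1).

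The Ifit proteins bind viral RNA or block its translation, and their genes lie side by side on chromosome 19, between 34550694 and 34650009. Ifit1 was at 7.62 and 8.91 CPM in the aged libraries, 18.1 CPM in young replicate 1 and 7.58 CPM in the other young library, with a log2 fold change of -0.64, and 0.12 without young replicate 1. Ifit2 had the same order, at 14.7 and 14.9 CPM in the aged libraries, 25.2 CPM in young replicate 1 and 11.0 CPM in the other young library, with -0.29 and 0.43. In both genes the aged libraries fell between the young ones. Ifit3 was at 20.1 and 19.3 CPM in the aged libraries and at 24.3 and 15.1 CPM in the young ones, with a log2 fold change of 0.00, and Ifit3b was at 9.502 and 9.725 CPM in the aged libraries and at 7.95 and 6.55 CPM in the young ones, with one of 0.41 (SE 0.219, adjusted p = 0.537 by edgeR). Since 51.2% of the 50-base windows of Ifit3 occur in Ifit3b, and 44.5% of those of Ifit3b in Ifit3, the split of counts between these paralogs is uncertain.

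Ifih1 and Ddx58, both sensors of viral RNA in the cytosol, lay apart between the ages in opposite directions. Ifih1, the sensor MDA5 for long double-stranded RNA, was at 56.0 and 52.3 CPM in the aged libraries and at 45.2 and 48.2 CPM in the young ones, with a log2 fold change of 0.21 (SE 0.132, adjusted p = 0.561 by edgeR). Ddx58, the sensor RIG-I for RNA with 5′ triphosphates, was at 56.7 and 50.1 CPM in the aged libraries and at 75.2 and 59.0 CPM in the young ones, with a log2 fold change of -0.33 (SE 0.182, adjusted p = 0.543 by edgeR). The signs were kept without young replicate 1, at 0.17 and -0.15. Dhx58, their regulator LGP2, was at 9.11 and 10.9 CPM in the aged libraries and at 15.2 and 10.5 CPM in the young ones, so that the groups overlapped, and its log2 fold change of -0.36 was -0.06 without young replicate 1.

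The remaining type I members were Bst2, Ifi35, Ifi44, Lgals3bp, Parp14, Rtp4, Trim30a and Xaf1, with log2 fold changes from -0.69 in Trim30a to 0.05 in Lgals3bp, and both aged libraries lay below both young ones for Ifi35, Ifi44, Rtp4 and Xaf1. Ifi35 was among the most even within each age, at 29.7 and 28.0 CPM in the aged libraries and at 35.8 and 35.6 CPM in the young ones. The aged over young log2 value was -0.31 (SE 0.145, adjusted p = 0.518 by edgeR), and -0.30 without young replicate 1, though an antisense gene shares 10.4% of its 50-base windows. Trim30a, a regulator of inflammatory signalling, was at 25.8 and 27.0 CPM in the aged libraries, 62.5 CPM in young replicate 1 and 22.6 CPM in the other young library. Bst2, the tetherin that holds budding virus at the cell surface, was at 20.0 and 21.3 CPM in the aged libraries, 32.7 CPM in young replicate 1 and 19.4 CPM in the other young library. The value turned from -0.69 to 0.23 in Trim30a and from -0.34 to 0.09 in Bst2 without young replicate 1.

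Interferon-gamma members that serve MHC class I presentation were high in young replicate 1 and lowest in young replicate 2. Tap1 (chr17:34187553-34197225), a subunit of the pump that carries peptides into the endoplasmic reticulum, was at 51.4 and 65.3 CPM in the aged libraries, 165.2 CPM in young replicate 1 and 47.1 CPM in the other young library. Its log2 fold change was -0.86 (SE 0.637, adjusted p = 0.598 by edgeR), and 0.31 without young replicate 1. Nlrc5, the transactivator of MHC class I genes, was at 83.9 and 84.0 CPM in the aged libraries, 221 CPM in young replicate 1 and 67.2 CPM in the other young library, with a log2 fold change of -0.78 (SE 0.595, adjusted p = 0.607 by edgeR), and 0.32 without young replicate 1. For Nlrc5 the aged libraries were almost equal while the young ones differed by 1.72 on the log2 scale. The immunoproteasome subunit Psmb9 was at 20.0 and 25.6 CPM in the aged libraries, 55.5 CPM in young replicate 1 and 17.3 CPM in the other young library, with a log2 fold change of -0.67 (SE 0.604, adjusted p = 0.653 by edgeR), and 0.40 without young replicate 1. Its partner Psmb8 was at 38.0 and 48.3 CPM in the aged libraries, 89.3 CPM in young replicate 1 and 28.0 CPM in the other young library. For Psmb8 the log2 fold change was -0.44 (SE 0.593, adjusted p = 0.764 by edgeR), and 0.62 without young replicate 1, where its unadjusted p was 0.0357. All 4 genes had the order young replicate 1, aged replicate 2, aged replicate 1, young replicate 2, which is also that of the summed T and natural killer cell markers and of the summed B and plasma cell markers. Members outside MHC class I presentation had this order too, namely Ifit1, Ifit2, Bst2, Trim30a, Lgals3bp, Gbp2 and Igtp. The share of all genes in this order was not counted, and the part of lymphocyte content in it was not tested. Psmb9 and Tap1 share exon sequence on opposite strands, and Psmb8 shares 11.9% of its 50-base windows with other genes.

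The interferon-gamma members that encode GTPases acting on intracellular parasites and bacteria were less uniform. Iigp1 was at 79.2 and 102.9 CPM in the aged libraries and at 49.4 and 69.5 CPM in the young ones (91.1 ± 16.8 against 59.4 ± 14.2, SD, n = 2 each). On the log2 scale the difference between ages was 0.62 (SE 0.245, adjusted p = 0.492 by edgeR), and 0.39 without young replicate 1, and it was the 1 interferon-gamma member that was not highest in young replicate 1. Gbp2 was at 36.9 and 41.9 CPM in the aged libraries and at 45.2 and 26.3 CPM in the young ones, with a log2 fold change of 0.14 (SE 0.308, adjusted p = 0.860 by edgeR), and 0.58 without young replicate 1 (unadjusted p = 0.0215). Igtp was at 20.3 and 22.4 CPM in the aged libraries and at 38.2 and 20.0 CPM in the young ones, with a log2 fold change of -0.45, but shares 11.8% of its 50-base windows with the overlapping gene Irgm2. Gbp3 and Gbp7 had log2 fold changes of -0.22 and -0.01. Without young replicate 1, 9 of the 10 interferon-gamma members were higher in aged. In those 3 libraries the summed T and natural killer cell markers were also lowest in the young one, at 7.90 CPM against 12.4 and 59.3 CPM. The same held for the macrophage markers, at 213.4 CPM against 288 and 327.1 CPM, and for the B and plasma cell markers. It also held for the fat cell markers, at 8326 CPM against 12520 and 9991 CPM, and for the skeletal muscle markers, at 14760 CPM against 40960 and 65730 CPM. The summed mammary epithelial markers were instead highest in the young one, at 2286 CPM against 1704 and 1717 CPM. Krt5 and Krt14 of that list did not follow the sum, at 50.9 and 34.1 CPM in the young one. Their aged values were 74.9 and 86.2 CPM for Krt5 and 48.6 and 50.6 CPM for Krt14. The part of any of these cell types in the values of the members was not tested.

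**Figure D3:**
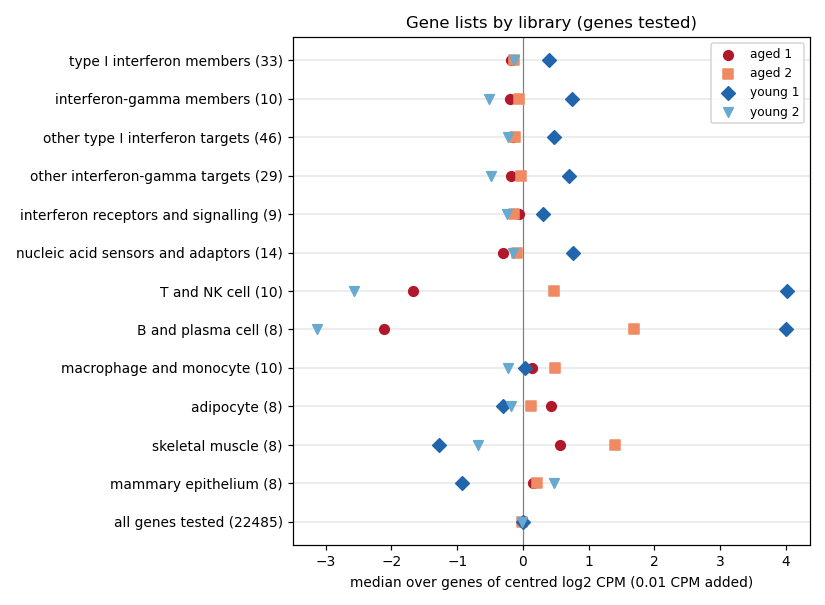
Median over the tested genes of each list of the log2 CPM of a gene minus its mean over the 4 libraries, with 1 point per library (red, aged; blue, young) and the number of genes in brackets. Young replicate 1 is the highest library for both groups of members, with medians of 0.39 for type I and 0.75 for interferon-gamma, and for the T and natural killer and the B and plasma cell markers.

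Scaled by the length of their exons, the members spanned a 681.8-fold range, from 414.8 CPM per kilobase in Ifi27l2a to 0.608 CPM per kilobase in Ifi44, with a median of 7.61. Ifi27l2a alone held 41.6% of the summed level per length, Ifi27 13.6%, Ifitm3 8.04% and the secreted glycoprotein gene Lgals3bp, at 58.9 CPM per kilobase, 5.90%. The most abundant interferon-gamma members were Irf1, at 20.1 CPM per kilobase, then Psmb8, Tap1 and Gbp2, at 15.0, 15.0 and 14.9. The ranges over the 4 libraries did not overlap between Ifi27l2a and Ifi27, Ifi27 and Ifitm3, Lgals3bp and Bst2, or Ifih1 and Ifit3b, and every other pair of neighbours in the order overlapped. The genes with the largest negative log2 fold changes lay at the low end, with 2.40 CPM per kilobase in Mx1 and 0.767 in Oas3.

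**Figure D4:**
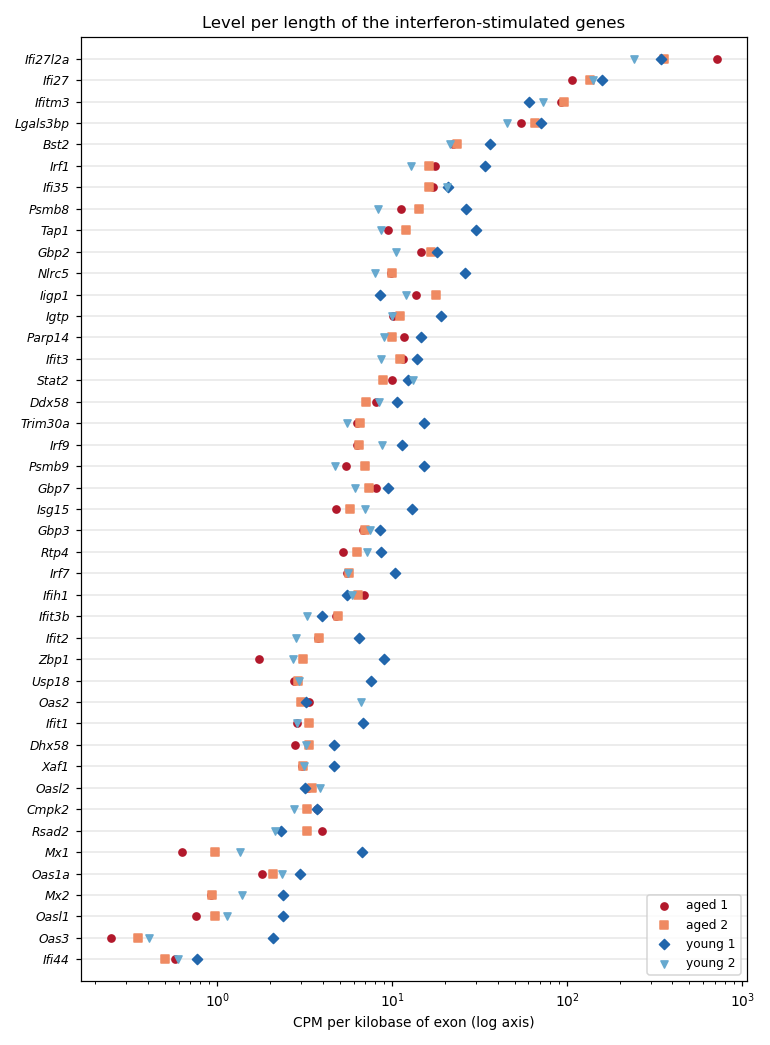
Level of each interferon-stimulated gene in CPM per kilobase of exon, on a log axis, with 1 point per library (red, aged; blue, young), sorted by the mean of the 4. The levels run from 414.8 in Ifi27l2a to 0.608 in Ifi44.

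The interferons themselves were barely detected. Of 21 ligand genes, 0 passed the filter, 11 were at 0 in every library and 20 had at most 2 counts in any. Ifnb1, for interferon-beta, had 0 counts in each library, which allows a level of up to 0.0337 to 0.0407 CPM, for counting error only. Ifng, for interferon-gamma, had 3 and 16 counts in aged replicates 1 and 2, 8 in young replicate 1 and 0 in young replicate 2, so that these few counts did not separate the ages.

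The receptors were present in every library. Ifnar1, of the type I receptor, was at 68.8 and 61.8 CPM in the aged libraries and at 106.5 and 61.3 CPM in the young ones, with a log2 fold change of -0.36, and Ifnar2 had one of -0.03. For the interferon-gamma receptor, Ifngr1 was at 91.4 and 77.5 CPM in the aged libraries and at 98.4 and 75.6 CPM in the young ones, and the log2 fold changes were -0.04 for Ifngr1 and 0.05 for Ifngr2. Over 9 genes of receptors and signalling, 0 were called, the median log2 fold change was -0.30, 8 were highest in young replicate 1, and the median without that library was 0.16. Ifnlr1, of the receptor for interferon-lambda, was the exception, at 18.1 and 14.6 CPM in the aged libraries and at 13.1 and 29.9 CPM in the young ones, with a log2 fold change of -0.40 (SE 0.453, adjusted p = 0.722 by edgeR), which was 0.33 without young replicate 2. Tyk2, the kinase of the type I receptor, was at 50.5 and 48.6 CPM in the aged libraries and at 90.1 and 64.9 CPM in the young ones, with a log2 fold change of -0.65 (SE 0.204, unadjusted p = 0.0323, adjusted p = 0.453 by edgeR), and -0.39 without young replicate 1. Jak1, its partner kinase, was at 211 and 226.2 CPM in the aged libraries and at 364.3 and 179.8 CPM in the young ones, and its value turned from -0.32 to 0.28 without young replicate 1. Both aged libraries were below both young ones for 2 of the 9 genes, against 22.8% of all genes.

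Of 14 sensors and adaptors, 0 were called and the median log2 fold change was -0.45, or -0.02 without young replicate 1, where 12 of the 14 were highest. The most negative values were -1.83 in Aim2, a sensor of cytosolic DNA, which was -0.45 without young replicate 1, and -1.71 in Irf8, a factor of B cells and dendritic cells. Irf8 was at 12.7 and 26.3 CPM in the aged libraries, 113.6 CPM in young replicate 1 and 13.5 CPM in the other young library, and its value was 0.53 without young replicate 1. Of 13 negative regulators tested of 14, 0 were called, 9 were highest in young replicate 1, and the median was -0.38, or 0.15 without that library. Trex1 was listed at 0 in every library, but its exons overlap Atrip on the same strand. Its counts are therefore uncertain, and the 0 does not show that the gene was silent. Ptpn6, a phosphatase abundant in blood cells, had a log2 fold change of -1.995 and Socs1, an inhibitor of Jak kinases, one of -1.44, which were 0.19 and 0.10 without young replicate 1.

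Further targets outside the set had much the same layout. Of 46 other type I targets, 0 were called, 33 were highest in young replicate 1, and the median log2 fold change was -0.38, or 0.16 without young replicate 1. Epsti1, the most negative, was at 5.53 and 11.0 CPM in the aged libraries, 164.2 CPM in young replicate 1 and 4.28 CPM in the other young library, and Slfn1 at 0.526 and 3.64, 36.6 and 0.800 CPM. Of 29 other interferon-gamma targets tested of 30, edgeR called 0, 26 were highest in young replicate 1, and the median was -0.35, or 0.47 without that library. Gbp8 had a log2 fold change of -2.29 and Ciita, the transactivator of MHC class II genes, one of -1.77, and these were 0.88 and 0.39 without young replicate 1. DESeq2 called 1 gene of this list higher in aged, beside 3.24% of all genes it tested. The gene was Ido1, an enzyme that breaks down tryptophan, named here after its values were seen. Ido1 was at 116.9 and 100.5 CPM in the aged libraries and at 35.5 and 52.7 CPM in the young ones, with an edgeR log2 fold change of 1.30 (SE 0.244) and an adjusted p of 0.370 in edgeR and 0.00289 in DESeq2.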

How the data were processed

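RNA of whole mammary fat pads was sequenced with a directional, rRNA-depleted kit. The deposited table holds whole-number counts per gene that the authors made with featureCounts on GRCm38, which the submitters' processing notes name beside R 3.6.1. The notes also list a human build. The aligner, the annotation release and the strand setting are not given in the sources used here, so antisense and overlapping genes are uncertain. Libraries were assigned by their titles. Ages were compared with edgeR 4.0.16 (R 4.3.3) by the quasi-likelihood test with TMM scaling and filterByExpr, fitted on all genes, with Benjamini-Hochberg adjustment at 0.05. The study's methods use DESeq2, run here as an alternative (1.42.0). Other scalings, filters, a replicate block and each library left out were also run. CPM per kilobase used the exon union of GENCODE, and promoter windows came from RefSeq. Shared sequence was counted in windows of 50 bases, and intervals and floors cover counting error only. With 2 libraries an age, p-values rest on the spread between these libraries, which the fits moderate for each gene by that of the other genes.

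Members, gene lists and markers were chosen with earlier results of these data known. Genes named individually were the 8 type I and 4 interferon-gamma members with the largest absolute log2 fold change, the 4 of each with the highest level per length, the pathway's transcription factors, receptors, Ifng and Ifnb1, and the 2 largest of each other list. A gene that this rule would name is not reported here and was taken out of its list. Further members were described to account for the whole set. The fold change of a gene is the fitted edgeR value, which adds a small prior count.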

Additional observations from a re-analysis of the deposited data

How the results depend on the processing

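Of the 43 members, 38 kept the direction of their log2 fold change in each alternative run on all 4 libraries. Direction held for 25 with each library left out in turn, and for 25 (19 lower and 6 higher in aged) in all of these. The share of all genes that kept their direction was not counted. Some of the 19 were near 0 without young replicate 1, with Xaf1 at -0.022, Usp18 at -0.058 and Dhx58 at -0.063. With each library left out in turn, the median log2 fold change ran from -0.59 to 0.090 over the members, from -0.57 to -0.063 over type I members and from -0.91 to 0.37 over interferon-gamma members. The members at an unadjusted p of 0.05 ran from 0 to 23 (0 to 3 higher in aged, 0 to 21 lower), those with both aged libraries above the young ones from 6 to 22 and those below from 17 to 35. The upper counts of 23, 21 and 35 came without young replicate 2, where 13.2% of all genes were higher and 14.7% lower at that p and 42.3% lay below. That of 22 came without young replicate 1, where 38.4% lay above. Across the runs that left a library out, 32.7% to 41.4% of all genes lay above and 31.7% to 42.3% below. With all 4 libraries these shares were 23.3% and 22.8%. The value turned for 13 members without young replicate 1, 5 without young replicate 2, and 2 each without aged replicate 1 or 2. Where it turned, it ran from -0.65 to 0.09 in Bst2, -0.087 to 0.34 in Cmpk2, -0.19 to 0.58 in Gbp2, -0.28 to 0.35 in Gbp7, -1.12 to 0.12 in Ifit1, -0.76 to 0.43 in Ifit2, -0.29 to 0.39 in Ifit3, -0.83 to 0.091 in Igtp, -0.99 to 0.39 in Irf1, -0.87 to 0.0055 in Irf7, -0.23 to 0.41 in Lgals3bp, -1.39 to 0.32 in Nlrc5, -0.20 to 0.11 in Oasl2, -0.43 to 0.26 in Parp14, -1.04 to 0.62 in Psmb8, -1.27 to 0.40 in Psmb9, -1.49 to 0.31 in Tap1 and -1.23 to 0.23 in Trim30a. Among the other genes named it ran from -2.59 to 0.39 in Ciita, -4.30 to 0.95 in Epsti1, -3.19 to 0.88 in Gbp8, -0.69 to 0.089 in Ifnar1, -0.30 to 0.31 in Ifnar2, -0.21 to 0.16 in Ifngr1, -0.17 to 0.33 in Ifngr2, -0.87 to 0.33 in Ifnlr1, -2.53 to 0.53 in Irf8, -2.82 to 0.19 in Ptpn6, -5.15 to 1.38 in Slfn1 and -2.16 to 0.10 in Socs1. In all 13 alternatives 0 members were called.

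At an unadjusted p of 0.05, 5 members (2 higher, 3 lower) became 8 (0 and 8) with total counts only. There 4.49% of all genes were higher and 7.75% lower. With no filter on low counts the members became 8 (5 lower), where 4.84% of all genes were higher and 2.81% lower. DESeq2 gave 9 (7 lower), where 5.19% of all genes were higher and 3.78% lower. Total counts alone moved the median of all genes from -0.04 to -0.22 and that of the members to -0.54, which is -0.32 relative to all genes with either scaling. They turned Cmpk2 to -0.068, Gbp2 to -0.039, Ifit3 to -0.17, Lgals3bp to -0.14 and Ifngr2 to -0.13. Ifit3 was also -0.021 with upper quartile scaling and -0.0080 with no filter. Apart from construction (all reads or all genes kept), the cause of these shifts was not tested.

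Same-numbered libraries deviated from their age mean in opposite ways (r = -0.427 over 22485 genes). With 2 libraries an age, this value cannot tell pairing from differences in cell content. It does not settle whether the numbers pair the libraries. With a replicate block, members at an unadjusted p of 0.05 were 2 (0 lower), where 4.87% of all genes were higher and 1.12% lower. The block put Gbp7 at 0.028 and Ifnar2 at 0.00035. The crossed pairing, added after the data were seen, gave 8 (6 lower), where 7.35% of all genes were higher and 3.74% lower. It gave 0 calls after adjustment, and put Gbp7 at 0.028 and Ifnar2 at 0.00020. Counting ISRE or GAS letters only in the last 200 bases of the windows gave 15 and 8 members.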
